A study of Mus musculus with 24 samples.

Results

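Neurotrophins are secreted growth factors that act on neurons through the Trk receptor tyrosine kinases, through the p75 neurotrophin receptor and through sortilin, which binds their uncleaved proforms. In the adult hippocampus BDNF, acting on TrkB, is best known for its part in synaptic plasticity, and its gene is read from several promoters that respond to neuronal activity. MSK1, a nuclear kinase activated downstream of TrkB and the MAP kinases, phosphorylates the transcription factor CREB, which binds the cyclic AMP response element (CRE) found in some of these promoters. The 6 genes described here are the neurotrophin ligands Bdnf and Ntf3, the tyrosine kinase receptors Ntrk2 (TrkB) and Ntrk3 (TrkC), the p75 receptor Ngfr, and Sort1, which encodes sortilin. They were taken by symbol from the 49568 gene symbols of the count files, and all 6 were found and passed the filter on low counts.

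Whole hippocampus was taken from experimentally naive male mice on a C57-Bl/6J background, whose age the labels give as 12 weeks. WT mice were compared with MSK1 KD mice, which are homozygous for a knock-in mutation of the endogenous Rps6ka5 gene that abolishes its N-terminal kinase activity and were bred apart from the WT line, so that the 2 genotypes are not littermates. Both genotypes were kept under standard housing (SH) or under environmental enrichment (EE) that began before birth. Enriched mice had larger cages with a running wheel and toys, larger social groups and additional dams during rearing. The 22 libraries used came from the SH groups (6 WT, 6 KD) and from the EE groups (5 WT, 5 KD), and p-values measure the spread between these libraries.

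The libraries held 8911999 to 56752074 counts on genes, and a floor of 3 counts stands for 0.0529 to 0.337 CPM (counts per library total, scaled by TMM). Hippocampal markers were present in each library, with the dentate granule list at a summed 203.9 to 396.4 CPM. Several libraries stand apart by markers of neighbouring tissue. Summed choroid plexus markers (9 genes) ranged from 38.0 to 5739 CPM, and thalamic markers (5 genes) were at 237.1 CPM in WT SH library 12, against 28.4 to 52.3 CPM in the others. Striatal markers were at 105.9 CPM in WT SH library 14. The study left out libraries 2, 9, 12, 31B and 35A for poor correlation within their group, and values over the remaining 17 are given beside several results. In KD SH library 5, the markers of dentate granule cells were the lowest of the 22 libraries. Rps6ka5 itself was at 24.9 ± 2.25 CPM (SD, n = 6) in WT SH, 21.4 ± 1.94 (n = 5) in WT EE, 25.5 ± 2.14 (n = 6) in KD SH and 23.5 ± 3.32 (n = 5) in KD EE. A point mutation need not change the amount of RNA, so these levels do not check the genotype labels.

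Bdnf (ENSMUSG00000048482) lies on the plus strand of chromosome 2 of GRCm38, from 109674700 to 109727007. Its 11 annotated transcripts begin at several first exons, and the files give 1 count for all of them, so that the use of each promoter was not measured. RefSeq start sites gave 11 promoter windows for 4 of the 6 members, 7 of them for Bdnf, 2 for Ntf3 and 1 each for Ntrk2 and Ngfr, and Ntrk3 and Sort1 had no entry. The 250 bases before each start were searched on both strands for the CRE palindrome TGACGTCA, for its core TGACG and for the variant TCACGTCA, whose last letters are that core on the other strand. Of the 11 windows, 1 held a match. This was the third Bdnf window, which held the variant with its first base 38 bases before the start, and it is shown because it was the only one of the 11 windows searched to hold any of these strings. The window before the first Bdnf start, without a match, is shown beside it, and capitals mark the variant.
Bdnf window 3, chr2:109692186-109692435, plus strand, RefSeq on GRCm38.p6: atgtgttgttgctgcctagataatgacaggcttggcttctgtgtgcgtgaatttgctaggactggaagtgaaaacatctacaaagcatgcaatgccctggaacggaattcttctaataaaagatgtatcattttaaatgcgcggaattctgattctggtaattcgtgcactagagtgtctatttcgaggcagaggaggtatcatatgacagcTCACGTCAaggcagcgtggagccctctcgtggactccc
Bdnf window 1, chr2:109674450-109674699, plus strand, RefSeq on GRCm38.p6: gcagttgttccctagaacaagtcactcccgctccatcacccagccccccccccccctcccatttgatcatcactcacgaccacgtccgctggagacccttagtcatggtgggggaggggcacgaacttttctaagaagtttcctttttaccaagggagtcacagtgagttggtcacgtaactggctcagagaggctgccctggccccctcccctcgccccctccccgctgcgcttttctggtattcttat
Among all 32851 RefSeq windows of that length, 0.35% held the variant, 1.55% the palindrome and 17.8% the core. A match of letters is a description of the sequence and no measurement of binding.

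Bdnf was 1.16-fold as abundant in enriched as in standard-housed WT mice, a difference that was larger than the standard error but did not pass the test over all genes. In WT SH its level was 40.6 CPM in library 10, 38.7 in 11, 32.1 in 12, 40.7 in 13, 37.6 in 14 and 34.2 in 15. In WT EE it was 37.5 CPM in 16, 45.9 in 17, 41.6 in 31B, 44.1 in 33A and 46.6 in 35A. Thus 4 of the 5 WT EE libraries lay above every WT SH library, and library 16 lay among them. The fold change on the log2 scale (log2FC) was 0.21 (SE 0.10, 95% CI 0.01 to 0.41), with unadjusted p = 0.0396 and adjusted p = 0.543 in edgeR's quasi-likelihood test. A gene was called when its adjusted p was at most 0.05 and its log2FC at least 0.38 in size. Of the 18482 genes tested in this comparison 0% were called, and 1598 had an unadjusted p under 0.05. DESeq2 called 20 genes, none of them a member. The WT value over the 17 libraries was 0.15 (SE 0.11, 95% CI −0.08 to 0.37, adjusted p = 0.612). With the same libraries and the mean log2 level of 6 meningeal markers as a covariate, a fit chosen after seeing the data, the WT value turned to −0.031 (SE 0.17).

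In MSK1 KD mice the enriched libraries were more widely spread. Bdnf was at 36.7, 35.5, 42.0, 39.2, 34.5 and 34.9 CPM in KD SH libraries 1 to 6, and at 53.4 CPM in 7, 34.7 in 8, 33.5 in 9, 40.0 in 32A and 45.6 in 36A of KD EE. Libraries 7 and 36A lay above all KD SH libraries and library 9 below them. The log2FC was 0.17 (SE 0.10, 95% CI −0.03 to 0.37, adjusted p = 0.576), in a comparison where 0% of genes were called, 1779 had an unadjusted p under 0.05 and DESeq2 called 3. Without library 7 it was 0.06 (adjusted p = 0.812), and over the 17 libraries it was 0.21 (SE 0.10, 95% CI 0.0011 to 0.42, adjusted p = 0.439). Averaged over genotypes, Bdnf was 0.19 higher in EE on the log2 scale (SE 0.07, 95% CI 0.05 to 0.33, unadjusted p = 0.0107, adjusted p = 0.162). In that average 27 genes were called (0.146%), none of them among the 6 members, and DESeq2 called 211, again with no member. Over the 17 libraries the average was 0.18 (SE 0.07, adjusted p = 0.205).

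Genotype moved Bdnf by less than its spread. The log2 difference of KD SH from WT SH was −0.01 (95% CI −0.20 to 0.18), and that of KD EE from WT EE was −0.05 (95% CI −0.26 to 0.16). The response to housing differed between genotypes by −0.04 on the log2 scale (95% CI −0.32 to 0.24, adjusted p = 1 when rounded). The comparison of KD SH with WT SH called 0% of genes, with 1065 at an unadjusted p under 0.05 and 2 called by DESeq2. Those of KD EE with WT EE, of the interaction and of KD with WT averaged over housings also called 0%, with 482, 377 and 1120 genes at an unadjusted p under 0.05 and 0 called by DESeq2 in each. An antisense gene, Gm45346, shares 14.4% of the exonic bases of Bdnf, and since the counting did not use strand the reads of the 2 cannot be told apart there.

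**Figure D1:**
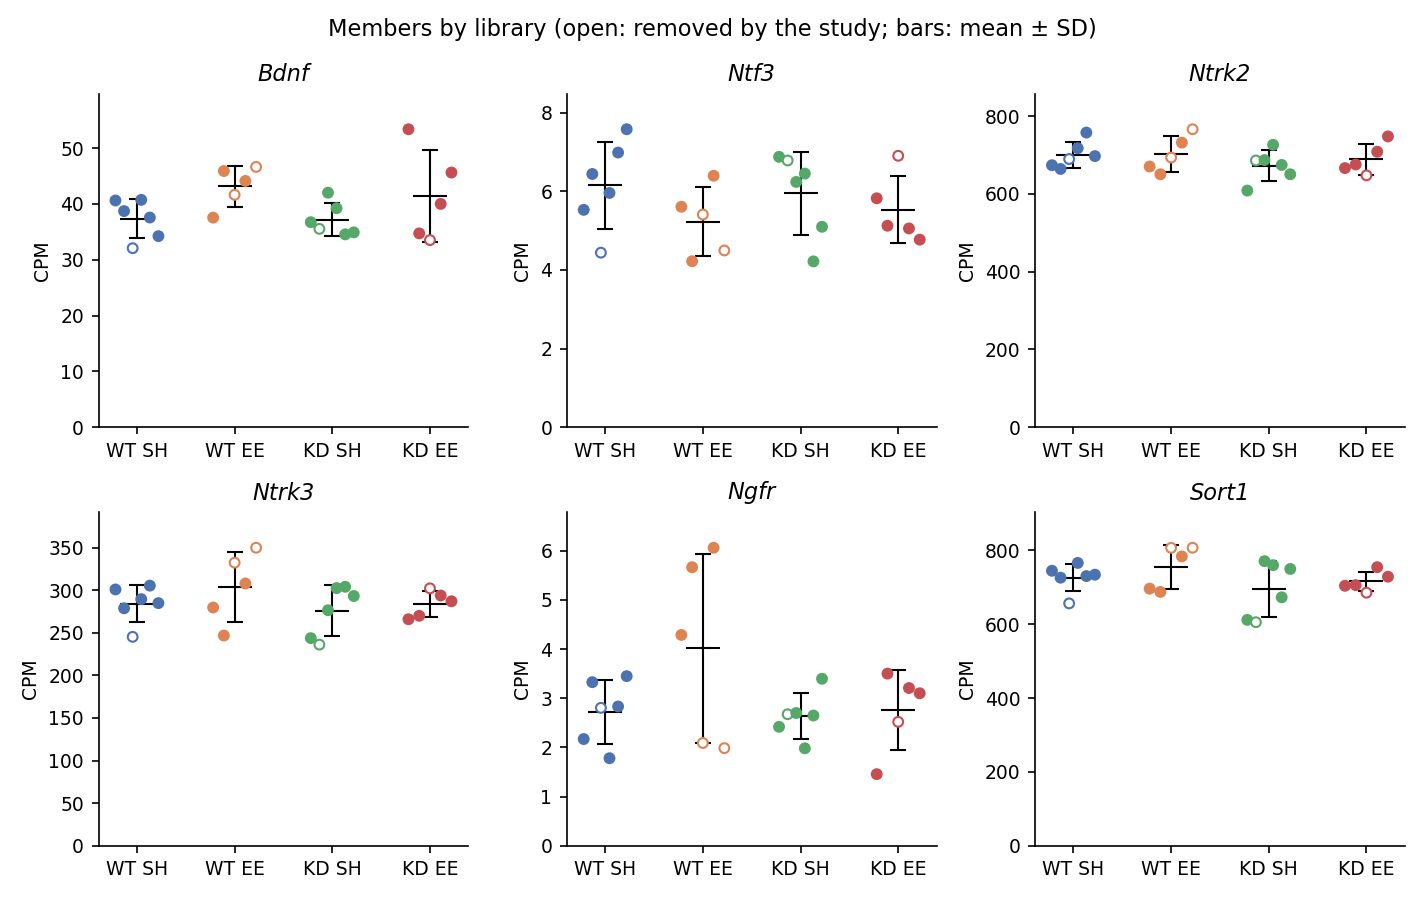
Level in CPM of each member in the 22 libraries by group, with 1 point per library, bars for the mean ± SD, and open points for the 5 libraries that the study removed. Bdnf lies at 37.5 to 46.6 CPM in WT EE and at 32.1 to 40.7 in WT SH, and Ngfr is split within WT EE, with the 2 removed libraries at 1.98 and 2.09 CPM.

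Ntf3 (ENSMUSG00000049107, chromosome 6, 126101412 to 126166910, minus strand) encodes neurotrophin-3, the ligand that prefers TrkC. It was lower in enriched mice on average, without passing the test. Its level was 5.53 CPM in library 10, 6.44 in 11, 4.44 in 12, 5.96 in 13, 6.98 in 14 and 7.57 in 15 of WT SH. The WT EE libraries were at 5.60 CPM (16), 4.22 (17), 5.41 (31B), 6.39 (33A) and 4.49 (35A), so that only library 17 lay below the lowest WT SH library and 1 of 5 lay above their median. KD SH libraries held 4.22 to 6.87 CPM (median 6.34) and KD EE libraries 4.77 to 6.90 (median 5.12). The log2FC of EE over SH was −0.24 (SE 0.15, 95% CI −0.54 to 0.06, adjusted p = 0.698) in WT and −0.12 (SE 0.15, 95% CI −0.43 to 0.18, adjusted p = 0.81) in MSK1 KD mice. These differences are within the spread between libraries, whose SD was 15.5% to 18.1% of the mean in each group. The counts behind them ranged from 63 to 345 per library. With 1 library left out the KD value ran from −0.20 without library 9 to −0.068 without 36A. The genotypes differed by −0.05 in SH (95% CI −0.33 to 0.24) and by 0.07 in EE (95% CI −0.26 to 0.39), and over the 17 libraries by −0.16 (95% CI −0.44 to 0.12) and −0.078 (95% CI −0.42 to 0.27).

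The 2 Trk receptors were nearly level across the 4 groups. Ntrk2 (ENSMUSG00000055254, chromosome 13, 58806569 to 59133970, plus strand) encodes TrkB, the receptor of BDNF. It was at 664.2 to 757.7 CPM (median 693.4) in WT SH, at 650.5 to 766.3 (median 693.5) in WT EE, at 608.6 to 726.3 (median 680.2) in KD SH and at 647.7 to 747.8 (median 675.7) in KD EE. The groups overlapped throughout, and the SD between libraries was 4.83% to 6.66% of the mean. EE over SH was 0.00 on the log2 scale in WT (SE 0.06, 95% CI −0.11 to 0.12) and 0.05 in MSK1 KD mice (SE 0.06, 95% CI −0.07 to 0.16), and KD over WT was −0.06 in SH (95% CI −0.17 to 0.05) and −0.02 in EE (95% CI −0.14 to 0.10). The intervals of these 4 comparisons stay below the 0.38 used to call a gene. The gene gives rise to a full-length receptor and to truncated receptors without the kinase domain, the latter abundant in astrocytes, and with 1 count for the whole gene their proportions were not measured.

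Ntrk3 (ENSMUSG00000059146, chromosome 7, 78175959 to 78738012, minus strand) encodes TrkC, the receptor of neurotrophin-3. Its level was 245.2 to 305.4 CPM (median 287.2) in WT SH, 236.1 to 303.99 (median 284.8) in KD SH and 265.9 to 302.2 (median 287) in KD EE. WT EE was the most spread, with 279.7 CPM in library 16, 246.8 in 17, 332.3 in 31B, 307.9 in 33A and 349.8 in 35A. The 3 libraries above all of WT SH include both that the study removed, and without the 5 removed libraries the direction of the log2FC of WT EE over WT SH turned from 0.09 (SE 0.08, 95% CI −0.08 to 0.26) to −0.07 (SE 0.08). Neither value passed the test (adjusted p = 0.823 and 0.762). In MSK1 KD mice EE over SH was 0.05 (95% CI −0.12 to 0.22). With 1 of the 22 libraries left out, the WT value ran from 0.031 without 35A to 0.16 without 17. The KD value ran from 0.013 without 2 to 0.084 without 5. With the mean log2 level of the choroid plexus markers as a covariate over the 22 libraries, EE over SH was 0.18 in WT (95% CI 0.04 to 0.32, adjusted p = 0.54), 0.19 in MSK1 KD mice (95% CI 0.04 to 0.34, adjusted p = 0.301) and 0.18 in the average over genotypes (95% CI 0.07 to 0.29, adjusted p = 0.128), where it was 0.07 without the covariate. With the same covariate over the 17 libraries the 3 values turned, to −0.098 (SE 0.17), −0.040 (SE 0.15) and −0.069 (SE 0.15). The fit over the 17 cannot separate housing from this covariate, since the choroid plexus levels of EE and SH did not overlap among them. With the meningeal covariate over the 22 libraries EE over SH was 0.16 in WT (95% CI 0.02 to 0.31, adjusted p = 0.709). It was 0.12 in MSK1 KD mice (95% CI −0.03 to 0.26) and 0.14 in the average (95% CI 0.03 to 0.25, adjusted p = 0.214). Over the 17 libraries with that covariate the values were 0.015, 0.045 and 0.030. None of these passed the test.

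Ngfr (ENSMUSG00000000120, chromosome 11, 95568818 to 95587735, minus strand), the p75 receptor that binds all neurotrophins and is sparse in adult brain outside cholinergic neurons, was the member with the widest spread. It was at 2.17 CPM in library 10, 3.33 in 11, 2.80 in 12, 1.78 in 13, 2.83 in 14 and 3.45 in 15 of WT SH. In WT EE it was at 4.29 CPM in library 16, 5.67 in 17 and 6.06 in 33A, but at 2.09 in 31B and 1.98 in 35A. The first 3 lay above every other library of the series used here and the last 2 lay within the range of WT SH. KD SH libraries 1 to 6 were at 2.42, 2.67, 2.70, 1.98, 2.65 and 3.40 CPM. KD EE libraries were at 1.45 CPM (7, with 19 counts), 3.50 (8), 2.52 (9), 3.21 (32A) and 3.10 (36A), and overlapped with KD SH. Counts per library ranged from 19 to 275.

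Over the 22 libraries the log2FC of Ngfr in WT EE over WT SH was 0.56 (SE 0.26, 95% CI 0.03 to 1.09, unadjusted p = 0.0384, adjusted p = 0.539), and in KD EE over KD SH it was 0.12 (SE 0.27, 95% CI −0.43 to 0.67). With 1 library left out the WT value ran from 0.34 without 33A to 0.74 without 35A, and the KD value from 0.023 without 8 to 0.26 without 7. KD EE differed from WT EE by −0.49 (95% CI −1.05 to 0.08, adjusted p = 1 when rounded), and KD SH differed from WT SH by −0.05 (95% CI −0.56 to 0.47). The difference of the 2 responses was −0.44 (95% CI −1.20 to 0.32, unadjusted p = 0.247). Over the 17 libraries, from which 31B and 35A are missing, Ngfr was called in WT with a log2FC of 0.99 (SE 0.22, 95% CI 0.53 to 1.46, adjusted p = 0.00937), among 664 of 18701 genes called (3.55%). It was the only member called there, and it was also called in the average over genotypes (0.58, SE 0.16, adjusted p = 0.0294), where 3.85% of genes were. In MSK1 KD mice over the 17 libraries it was 0.17 (SE 0.22, adjusted p = 0.828), and the interaction was −0.83 (SE 0.32, unadjusted p = 0.0158, adjusted p = 0.875). KD EE differed from WT EE there by −0.87 (SE 0.24, 95% CI −1.36 to −0.37, unadjusted p = 0.00147, adjusted p = 0.448). The 17 libraries were chosen on the correlation between these same libraries. With WT EE library 17 or 33A also left out of the 17, the WT value was 0.95 (adjusted p = 0.0502) or 0.88 (adjusted p = 0.0637) and no longer called. The averaged value lost its call without any 1 of libraries 4, 8, 10, 13, 17, 32A, 33A and 36A, with values from 0.51 to 0.57.

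The WT EE libraries high in Ngfr were also high in markers of choroid plexus, the tissue of the ventricles that borders the hippocampus, of meninges, and of ependyma, the ciliated lining of the ventricles. The 9 choroid plexus markers summed to 5303, 4149 and 5333 CPM in WT EE libraries 16, 17 and 33A, against 70.4 in 31B and 58.6 in 35A. The 6 meningeal markers summed to 143.6, 143.0 and 108.9 CPM in those 3 libraries, and to 69.4 and 87.7 in the other 2. They were higher than in 33A in KD EE libraries 32A (123.8 CPM) and 36A (111.5) and in KD SH library 2 (117.0). Ngfr was at 3.21, 3.10 and 2.67 CPM there. The 3 ependymal markers (Foxj1, Tmem212 and Ccdc153) summed to 30.4, 27.8 and 32.1 CPM against 13.8 in 31B and 14.3 in 35A. They were as high in KD SH library 2 (30.8 CPM) and KD EE library 36A (27.9 CPM), where Ngfr was at 2.67 and 3.10 CPM. Every marker of these 3 lists had counts in each of the 22 libraries. By group, the choroid plexus sum was 57.9 to 1885 CPM in WT SH, 58.6 to 5333 in WT EE, 38.0 to 2956 in KD SH and 209.6 to 5739 in KD EE. Over the 17 libraries the sums of EE and SH did not overlap. The lowest in EE was 1022 CPM (library 7) and the highest in SH was 798.7 CPM (library 11). Housing and choroid plexus content therefore cannot be told apart over the 17, for the Ngfr calls or any other difference of EE from SH. The sum for meninges was 76.0 to 100.2 CPM in WT SH, 69.4 to 143.6 in WT EE, 53.5 to 117.0 in KD SH and 71.2 to 123.8 in KD EE. The sum for ependyma was 17.4 to 22.3 CPM in WT SH, 13.8 to 32.1 in WT EE, 16.9 to 30.8 in KD SH and 15.4 to 27.9 in KD EE. In KD EE the 3 libraries highest in choroid plexus markers, 8, 32A and 36A with 2251, 3092 and 5739 CPM, were also the 3 highest in Ngfr, at 3.50, 3.21 and 3.10 CPM. The order was not kept below them, since library 7, with a choroid plexus sum of 1022 CPM, had the lowest Ngfr of all (1.45 CPM), under library 9 with a sum of 209.6 CPM. In both SH groups the highest Ngfr was in a library low in choroid plexus markers, 15 in WT SH (61.7 CPM of markers, Ngfr 3.45) and 6 in KD SH (48.2 CPM, Ngfr 3.40). In KD SH, library 2 had the highest choroid plexus sum, 2956 CPM, with Ngfr at 2.67 CPM, within the range of the other 5. With the mean log2 level of the choroid plexus markers as a covariate, the WT value over the 22 libraries was 0.19 (SE 0.23, adjusted p = 0.879), and over the 17 libraries it was 0.60 (SE 0.50, adjusted p = 0.998). The fit over the 17 cannot separate housing from this covariate, since the choroid plexus levels of EE and SH did not overlap there. The KD value over the 22 libraries turned with this covariate from 0.12 to −0.31. The difference of KD EE from WT EE was −0.53 with it over the 22 libraries (95% CI −0.99 to −0.06, adjusted p = 0.999) and −0.80 over the 17 (95% CI −1.32 to −0.29, adjusted p = 0.793), near the values without it. With the meningeal markers as the covariate the WT value was 0.37 (SE 0.26, adjusted p = 0.82) over the 22 and 1.34 (SE 0.34, adjusted p = 0.0877) over the 17 libraries. The average over genotypes, called over the 17 libraries without a covariate, was 0.20 there (SE 0.46) with the choroid plexus covariate. With the meningeal covariate it was 0.87 (SE 0.27, adjusted p = 0.236), and neither value was called. Ependymal markers were not fitted as a covariate, and their part in the Ngfr values was not tested. In bulk RNA, more cells that carry Ngfr and more RNA per cell cannot be told apart.

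**Figure D2:**
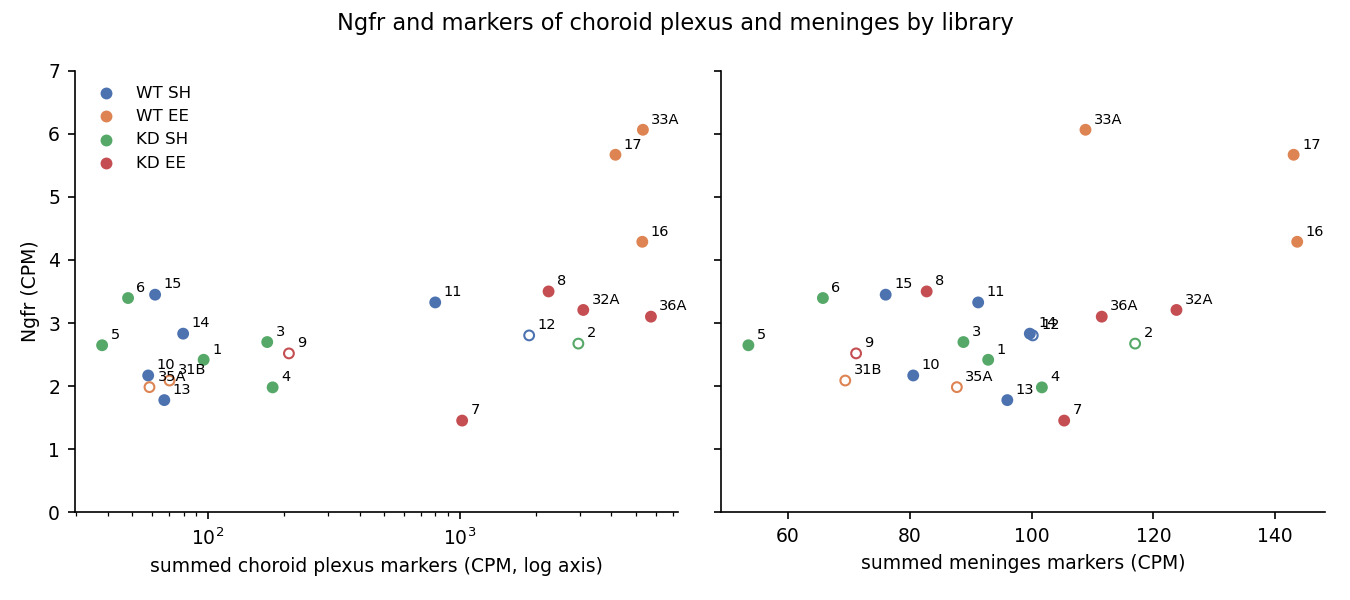
Ngfr in CPM for each of the 22 libraries, labelled by library, against the summed CPM of 9 choroid plexus markers (left, log axis) and of 6 meningeal markers (right), with colours for the groups and open points for the libraries removed by the study. WT EE libraries 16, 17 and 33A lie at the top of both panels, and KD EE library 36A has a choroid plexus sum of 5739 CPM with Ngfr at 3.10 CPM. In the right panel 33A (108.9 CPM) lies to the left of KD EE library 32A (123.8 CPM).

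Sort1 (ENSMUSG00000068747, chromosome 3, 108284082 to 108361511, plus strand) encodes sortilin, which sorts neurotrophins inside the cell and pairs with p75 to bind their proforms. It was at 656.3 to 765.9 CPM (median 732.2) in WT SH, 687.4 to 807.1 (median 783.5) in WT EE, 605.4 to 770.8 (median 711.2) in KD SH and 685.4 to 754.5 (median 705.7) in KD EE. The groups overlapped in all 4 pairwise comparisons. EE over SH was 0.06 in WT (SE 0.07, 95% CI −0.08 to 0.20) and 0.05 in MSK1 KD mice (SE 0.07, 95% CI −0.09 to 0.19), and KD over WT was −0.07 in both SH (95% CI −0.20 to 0.07) and EE (95% CI −0.22 to 0.08). The lowest WT SH library was 12, the one rich in thalamic markers. Over the 17 libraries the WT value was −0.04 (SE 0.07). With 1 of the 22 libraries left out, the WT value ran from 0.027 to 0.088 and the KD value from 0.019 to 0.087. With the choroid plexus covariate over the 22 they were 0.10 and 0.12. The average over genotypes was then 0.11 (95% CI 0.0072 to 0.22, adjusted p = 0.272). Over the 17 libraries with this covariate these values turned, to −0.14 (SE 0.15), −0.061 (SE 0.13) and −0.10 (SE 0.14), in a fit that cannot separate housing from the covariate. An antisense gene, Gm12523, shares 4.47% of the exonic bases of Sort1.

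**Figure D3:**
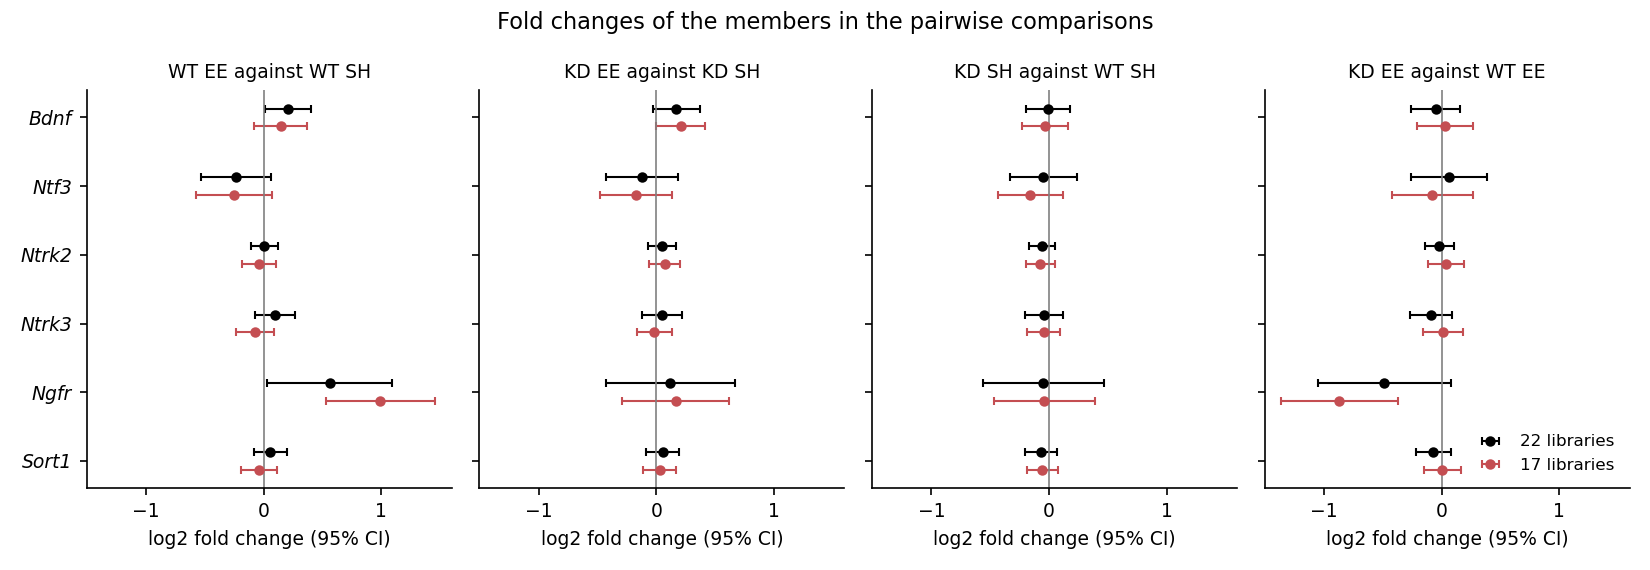
Log2 fold change with its 95% confidence interval for each member in the 4 pairwise comparisons, over the 22 libraries (black) and over the 17 that the study compared (red). The interval of Ngfr in WT EE against WT SH runs from 0.03 to 1.09 over the 22 and from 0.53 to 1.46 over the 17 libraries, and those of Ntrk2, Ntrk3 and Sort1 cross 0 in each panel.

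Levels of different genes were compared per kilobase of annotated exon. On this scale the order of the members was the same in each of the 22 libraries. Sort1 was at 95.4 ± 7.23 CPM per kb (SD over the 22 libraries), Ntrk2 at 35.8 ± 2.02, Ntrk3 at 9.49 ± 0.932, Bdnf at 6.36 ± 0.842, Ntf3 at 3.35 ± 0.578 and Ngfr at 0.871 ± 0.331. Of the neighbours in this order, the ranges overlapped only for Ntrk3 and Bdnf, although Ntrk3 was above Bdnf within each library. The exonic length of Ntrk3, 30170 bases over 20 annotated transcripts, includes exons that a given transcript lacks, and its level per kb rests on that sum. Sorl1, a sorting receptor of the same family as sortilin, was at 37.9 ± 4.17 CPM per kb and above Ntrk2 in 17 of 22 libraries. Ntf5, which encodes neurotrophin-4, had more than 3 counts in 17 of the 22 libraries, with CPM of 0 to 1.10, and was below Ngfr per kb in each library.

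**Figure D4:**
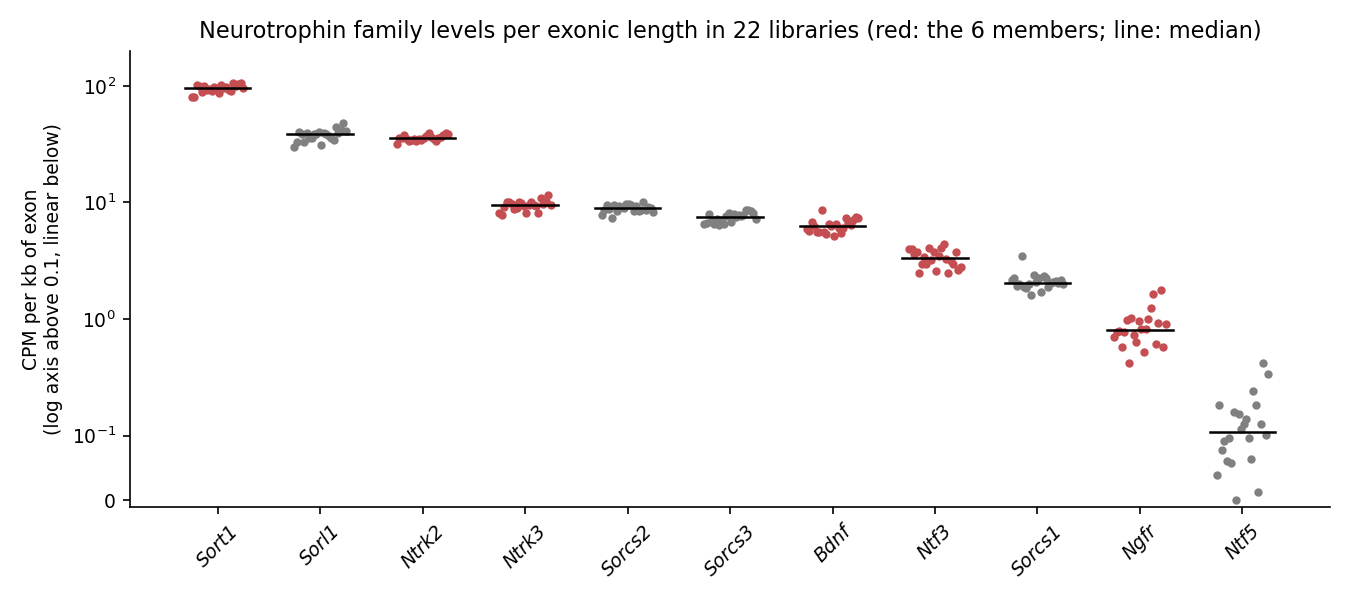
CPM per kb of annotated exon for the 6 members (red) and 5 other ligands and receptors (grey) in the 22 libraries, with 1 point per library and a line at the median, on an axis that is logarithmic above 0.1 and linear below. Sort1 is the highest, Ngfr the lowest of the members with a median of 0.798, and Ntf5 lies below it.

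The spread between libraries within groups was set against marker scores for 36 pairs, made of the 6 members and 6 lists (immediate early genes, dentate granule cells, astrocytes, meninges, thalamus and basal forebrain cholinergic neurons). Both were taken as deviations from the group means. After adjustment over the 36 pairs, 1 passed by Pearson's r and 2 by Spearman's rho. Ntrk2 went with the astrocyte score (r = 0.73, permutation p = 0.00039, adjusted p = 0.014, rho = 0.76, permutation p = 0.00034, adjusted p = 0.0122, n = 22). Without the 2 libraries farthest from the median score, 9 and 17, its r was 0.66. Without libraries 12 and 14 it was 0.71 (permutation p = 0.00165, adjusted p = 0.0594), and 0 pairs passed. Sort1 went with the dentate granule score by rank only (rho = 0.81, permutation p = 0.00069, adjusted p = 0.0124), with r = 0.66 (permutation p = 0.0123, adjusted p = 0.0947) and r = 0.81 without libraries 5 and 12. Bdnf and the immediate early gene score had r = 0.37 (permutation p = 0.153, adjusted p = 0.31) and rho = 0.31 (permutation p = 0.2, adjusted p = 0.421), and r = 0.52 without libraries 32A and 4. Ntrk3 had r = −0.64 (permutation p = 0.00718, adjusted p = 0.0948) and rho = −0.62 (permutation p = 0.00828, adjusted p = 0.0994) with the meningeal score, and r = −0.46 without libraries 17 and 16. Ngfr had r = 0.36 with the meningeal score (permutation p = 0.262, adjusted p = 0.45). Its r with the cholinergic score was −0.06 (permutation p = 0.772, adjusted p = 0.817). The cholinergic list was near the floor, with Chat at 0 counts in 4 of 22 libraries.

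**Figure D5:**
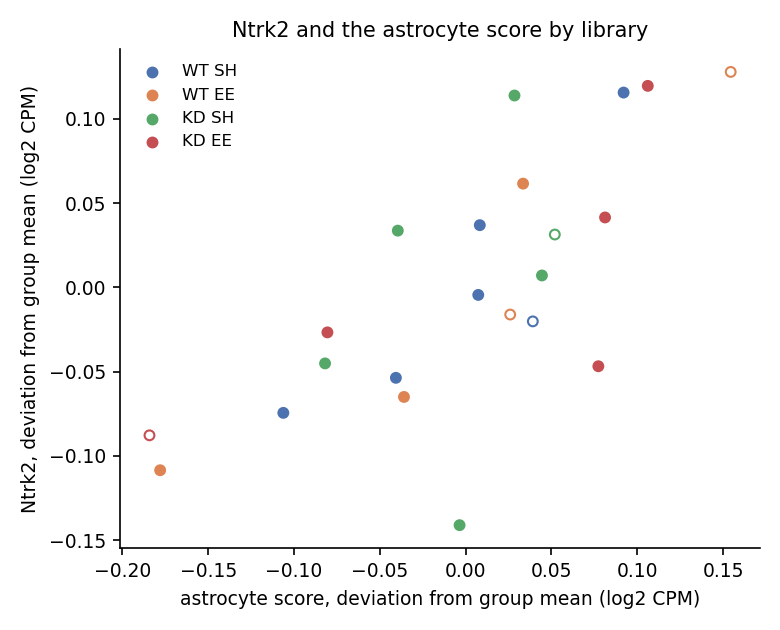
Ntrk2 against the astrocyte score (mean log2 CPM of 5 markers) in the 22 libraries, both as the deviation from the mean of the library's group, with colours for the groups and open points for the libraries removed by the study. The points rise together, with r = 0.73, and 2 libraries, 9 and 17, lie at the lower left.

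The genes most like each member over the 22 libraries were read from the correlation of log2 CPM with 15024 other genes at a mean of at least 1 CPM, as a description. For Bdnf they included Klf2 (r = 0.72) and Tmem127 (0.70), and for Ntf3 they were Trhr (0.78), Gdf10 (0.77) and Tmem255a (0.75). Ntrk2 was most like Arid5b (0.85), Adam19 (0.85) and Fzd3 (0.83). The closest likeness was that of Ntrk3 to Cacna1e (0.96), Kidins220 (0.94) and Aak1 (0.94), and Sort1 was near this with Plxna4 (0.94), Kcnj6 (0.92) and Tnr (0.91). Kidins220 encodes a membrane scaffold that binds Trk receptors. Ngfr was most like Dnaic2 (0.84), which encodes an axonemal dynein chain of motile cilia, Ubxn11 (0.81) and Plcd1 (0.80). These points share the depth and tissue makeup of the libraries.

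The rest of the pathway was described by 4 lists. None of their genes was called in any of the 7 comparisons over the 22 libraries, in which 0% of all genes were called except in the average over genotypes of EE and SH. Other ligands and receptors made up the first list. Sorcs3, a neuronal sortilin relative, had 54.3 ± 3.22 CPM (n = 6) in WT SH against 49.8 ± 4.14 (n = 6) in KD SH, and 57.8 ± 2.79 (n = 5) in WT EE and 50.9 ± 6.43 (n = 5) in KD EE. It had the lowest p of its list in both genotype comparisons, with log2 differences of −0.13 (SE 0.07, adjusted p = 0.811) and −0.17 (SE 0.07, adjusted p = 1 when rounded). Sorl1 in WT (0.13, SE 0.09) and Sorcs1 in MSK1 KD mice (−0.22, SE 0.12) had the lowest p for housing. The Sorcs1 value rests on KD SH library 5, at 29.5 CPM against at most 18.9 in the other 5, and was −0.071 (SE 0.08) without it.

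Of the 9 genes that process or cleave proneurotrophins, 8 were tested. Their median log2FC of EE over SH was 0.08 in WT and 0.02 in MSK1 KD mice, against 0.01 and 0.00 for all genes. Plat, which encodes tissue plasminogen activator, part of the route from proBDNF to BDNF through plasmin, was at 41.6 ± 3.93 CPM (n = 5) in KD EE and 35.2 ± 4.36 (n = 6) in KD SH (0.25, SE 0.08, unadjusted p = 0.00375, adjusted p = 0.453), and its log2FC in WT was 0.15 (SE 0.08). Cpe, the carboxypeptidase that binds proBDNF for sorting, had a log2FC of −0.12 (SE 0.05, adjusted p = 0.533) in WT EE over WT SH and of −0.13 (SE 0.05, adjusted p = 0.491) in KD EE over KD SH. Furin, a proneurotrophin convertase, was at 39.6 ± 5.68 CPM in KD SH and 44.7 ± 4.75 in WT SH (n = 6 each, −0.17, SE 0.09, adjusted p = 0.811), and EE over SH was 0.22 (SE 0.10) in MSK1 KD mice and 0.13 (SE 0.10) in WT. Pcsk6 was lowest in p between KD EE and WT EE (−0.16, SE 0.08, adjusted p = 1 when rounded).

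All 23 adaptors and effectors of the Trk receptors were tested, with a median of −0.02 for housing in WT and 0.05 in MSK1 KD mice. Akt2, a kinase of the survival pathway, was at 99.7 ± 3.83 CPM (n = 5) in WT EE and 83.3 ± 4.35 (n = 6) in WT SH, a log2FC of 0.26 (SE 0.06, unadjusted p = 0.000311, adjusted p = 0.259), and it was 0.041 (SE 0.06) in MSK1 KD mice (interaction, adjusted p = 1 when rounded). Gab1, a docking protein, was at 37.9 ± 2.95 CPM (n = 5) in KD EE and 43.7 ± 2.82 (n = 6) in KD SH (−0.20, SE 0.07, adjusted p = 0.458), and its log2FC in WT was −0.16 (SE 0.07). Shc3, a neuronal adaptor of Trk receptors, had the largest difference between genotypes in SH, with 19.8 ± 4.27 CPM (n = 6) in KD SH and 27.3 ± 3.57 (n = 6) in WT SH (−0.46, SE 0.16, unadjusted p = 0.0061, adjusted p = 0.811). Akt2 was also lowest in p between KD EE and WT EE (−0.08, SE 0.06). The 10 partners of p75 were tested, with medians of −0.02 and 0.05 for housing in WT and MSK1 KD mice. Among them Bex3, a p75 binding protein, had the lowest p for housing in both genotypes (−0.15 and −0.13, SE 0.08 each). Lingo1, a p75 co-receptor, had the lowest p between genotypes in SH, with 273.2 ± 36.5 CPM (n = 6) in KD SH and 309.1 ± 26.4 (n = 6) in WT SH (−0.18, SE 0.08, adjusted p = 0.811), and Rtn4 (Nogo) had it in EE (0.05, SE 0.07). None of these differences passed the test over the 18482 genes.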

How the data were processed

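Hippocampal RNA was sequenced as poly(A) libraries. After trimming by Skewer, the authors used STAR 2.5 for alignment (GRCm38) and HTSeq, in a mode that ignores strand, to count uniquely aligned reads by gene symbol. The deposited values used here are these raw counts, 1 file for each of 24 libraries; a further table of scaled values for 17 libraries was not used. Libraries 33B and 34B, which failed the study's quality control, were left out of the main fit. Reads outside single genes (14.1% to 18.6% of each of the 22 libraries) were left out of library sizes. The 50 pairs of libraries within groups differed beyond sampling noise (chi-square per gene at least 4.51), so each library was counted once.

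The counts were fitted in R 4.3.3 with edgeR 4.0.16 (filterByExpr by group, TMM scaling, 1 quasi-likelihood model with 4 group means, Benjamini–Hochberg adjustment over the 18482 genes tested). Calls required an adjusted p up to 0.05 together with a log2 fold change of at least 0.38 in size. DESeq2 1.42.0 was an alternative. CPM use TMM factors computed over all genes. List scores are the mean log2 CPM with a prior count of 2. Correlations were tested two-sided with 100000 permutations within groups in Python 3.11.15 with numpy 2.4.6, and figures were drawn with matplotlib 3.10.9. Positions and exonic lengths are those of GENCODE M21 on GRCm38. Both tests were tested on simulated data. The members and lists were chosen with earlier results of these data known. Named were the members, other ligands and receptors, Rps6ka5, the gene of each pathway list with the lowest p in each pairwise comparison, and the 3 genes most like each member, of which a few are not reported here. The labels do not say that libraries share a litter or day. Floors of single counts cover counting error only, whereas the confidence intervals of log2FC include the spread between libraries.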

Additional observations from a re-analysis of the deposited data

Results flagged for a closer look

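Among 52 sets of values, made of 13 genes in 4 groups, 3 held a library far from the others of its group by Dixon's criterion at the 95% level, which chance alone gives for about 1 set in 20. Sort1 was at 656.3 CPM in WT SH library 12, against 725.97 to 765.9 CPM in the other 5 libraries of the group. Sorl1 was at 350.8 CPM in the same library, against 416.4 to 451.0 CPM in the others. Library 12 had a summed 237.1 CPM of thalamic markers, against up to 49.4 CPM in the other WT SH libraries, and their part in these values was not tested. Sorcs1, a neuronal sortilin relative, was at 29.5 CPM (546 counts) in KD SH library 5, against at most 18.9 CPM in the other 5. The dentate granule, CA1, CA2 and CA3 markers of library 5 summed to 203.9, 284.3, 98.95 and 91.7 CPM, each the lowest of the 22 libraries. Its neocortical markers summed to 147.8 CPM, the highest of the 22. The part of these tissues in the Sorcs1 value was not tested.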

How the results depend on the processing

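No member was called over the 22 libraries. Leaving aside the refits of Ngfr over the 17 libraries with 1 more left out, most of which kept its call in WT (the report names those that lost it), 2 of 1452 refits of the members gave a call, both for Ngfr over the 17 libraries (0.99 in WT and 0.58 in the average over genotypes). In the comparisons of EE with SH, Ntf3 stayed lower in EE in each genotype and in the average under every alternative run, and Bdnf stayed higher except in WT over the 17 libraries with the meningeal covariate. In 114 refits the direction turned; apart from Ngfr these values lay between −0.14 and 0.14, and the cause was not tested. Over the 17 libraries they were, in WT EE against WT SH, Ntrk2 (−0.039), Ntrk3 (−0.071) and Sort1 (−0.037); in KD EE against KD SH, Ntrk3 (−0.017); in KD EE against WT EE, Bdnf (0.029), Ntf3 (−0.078), Ntrk2 (0.038), Ntrk3 (0.011) and Sort1 (0.0071); in the interaction, Bdnf (0.064), Ntrk3 (0.054) and Sort1 (0.065); in the average of EE and SH, Ntrk3 (−0.044) and Sort1 (−0.0044); and in that of KD and WT, Ntf3 (−0.12). Without the lettered libraries, all enriched, they were Ntrk2 (−0.081), Ntrk3 (−0.11) and Sort1 (−0.067) in WT EE against WT SH, Ngfr (−0.00034) in KD EE against KD SH, Ntrk2 (0.018), Ntrk3 (0.097) and Sort1 (0.025) in KD EE against WT EE, Ntrk3 (0.14) and Sort1 (0.093) in the interaction, Ntrk2 (−0.040), Ntrk3 (−0.035) and Sort1 (−0.020) in the average of EE and SH, and Ntrk3 (0.025) in that of KD and WT. With all 24 libraries Ntrk2 was −0.0014 in WT EE against WT SH. Without libraries 12 and 14, Bdnf (0.0092) and Sort1 (0.031) turned in the interaction and Ntf3 (−0.016) in the average of KD and WT. With the choroid plexus covariate Ngfr was −0.31 in KD EE against KD SH and −0.064 in the average of EE and SH, and Ntrk3 (0.0068) and Sort1 (0.021) turned in the interaction. Alternatives chosen after seeing the data were the meningeal covariate, both covariates over the 17 libraries, and the 17 libraries with each left out. Over the 17 the choroid plexus covariate cannot be separated from housing, since its values in EE and SH did not overlap. Ngfr in KD EE against KD SH was −0.00046 with the meningeal covariate and −0.19 over the 17 libraries with the choroid plexus covariate. With the latter the others that turned were Ntrk2 (−0.14), Ntrk3 (−0.098) and Sort1 (−0.14) in WT EE against WT SH, Ntrk2 (−0.012), Ntrk3 (−0.040) and Sort1 (−0.061) in KD EE against KD SH, Bdnf (0.033), Ntf3 (−0.052), Ntrk2 (0.056), Ntrk3 (0.016) and Sort1 (0.027) in KD EE against WT EE, Bdnf (0.067), Ntrk3 (0.058) and Sort1 (0.079) in the interaction, Ntrk2 (−0.074), Ntrk3 (−0.069) and Sort1 (−0.10) in the average of EE and SH, Ntf3 (−0.10) in that of KD and WT. Over the 17 libraries with the meningeal covariate the others that turned were Bdnf (−0.031), Ntrk2 (−0.034) and Sort1 (−0.046) in WT EE against WT SH, Bdnf (0.10), Ntf3 (−0.079), Ntrk2 (0.036) and Sort1 (0.011) in KD EE against WT EE, Bdnf (0.12), Ntrk3 (0.030) and Sort1 (0.068) in the interaction, Sort1 (−0.012) in the average of EE and SH, Bdnf (0.041) and Ntf3 (−0.12) in that of KD and WT.

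With each library left out in turn, values ranged from −0.035 to 0.029 for Ntrk2 in WT EE against WT SH. In KD SH against WT SH they ranged from −0.049 to 0.019 for Bdnf, −0.12 to 0.025 for Ntf3 and −0.15 to 0.034 for Ngfr, and in KD EE against WT EE from −0.15 to 0.014 for Bdnf, −0.011 to 0.15 for Ntf3 and −0.047 to 0.018 for Ntrk2. In the interaction they ranged from −0.14 to 0.023 for Bdnf, −0.11 to 0.018 for Ntrk3 and −0.042 to 0.029 for Sort1, and in the average of KD and WT from −0.082 to 0.0025 for Bdnf and −0.029 to 0.052 for Ntf3.

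The number of genes called depended on the libraries. In WT EE against WT SH it was 664 over the 17, 314 without the lettered libraries, 132 over the 17 with the meningeal covariate, 20 in DESeq2, 7 with no filter and 1 with all 24. In KD EE against KD SH it was 325 over the 17, 113 over them with the meningeal covariate, 3 in DESeq2 and 0 to 1 with a library left out. KD SH against WT SH gave 2 in DESeq2. KD EE against WT EE gave 1 over the 17 and 0 to 1 with a library left out. In the average of EE and SH the 27 genes became 720 over the 17, 211 in DESeq2, 209 with no filter, 194 and 0 over the 17 with the meningeal and the choroid plexus covariate, 90 with all 24, 80 without the lettered libraries, 49 by the adjusted p alone, 45 with at least 10 counts in every library, 44 with the size factors of DESeq2, 9 with the choroid plexus covariate, 4 without libraries 12 and 14, 3 with the meningeal covariate, and 2 to 287 (without 31B) with a library left out. Of the 36 correlations 1 passed, and 0 without libraries 12 and 14. No paired analysis was possible because the library codes share no number between groups.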
